A study of Mus musculus with 8 samples.

Results

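The intercalated disc is the junction that joins heart muscle cells end to end, and 10 of its genes were followed here in the left ventricle of mice infused with angiotensin II (ANG II), a peptide hormone that raises blood pressure. The genes were taken by name: the connexins Gja1, Gja5 and Gjc1, the desmosomal genes Pkp2, Dsp, Dsg2, Dsc2 and Jup, and the adherens junction genes Cdh2 and Ctnna3. They are 10 of the 55679 genes in the table, all 10 were detected in every library, and all 10 passed the filter on low values.

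Several kinds of junction meet at the disc. Gap junctions are made of connexins and pass current and small molecules from cell to cell. Desmosomes hold the cells together through the cadherins desmoglein 2 (Dsg2) and desmocollin 2 (Dsc2), which bind plakoglobin (Jup), plakophilin 2 (Pkp2) and desmoplakin (Dsp) and, through desmoplakin, the desmin filaments. Adherens junctions use N-cadherin (Cdh2) and the catenins, alpha-T-catenin (Ctnna3) among them, to anchor actin. Inherited variants of the desmosomal genes are a known cause of arrhythmogenic cardiomyopathy, and rearrangement of connexins is a known feature of overloaded hearts.

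The libraries came from male wild-type C57BL/6J mice, whose age was not given in the sources used here. The control group (4 libraries) received saline and the ANG II group (4 libraries) 1500 ng/kg/min of ANG II, both for 7 days from a pump under the skin, and blood was rinsed from the heart with saline before the left ventricle was dissected. The study calls the libraries biological replicates, but the labels do not tie each one to its own animal, so p-values measure the spread between these libraries. Expression is given as FPKM, the fragments of a gene scaled by transcript length and by how many fragments of that library mapped.

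The label for RNA extraction names a cell source other than the heart, so the tissue was checked by its markers. The 13 cardiomyocyte markers summed to 39533 to 51632 FPKM, with Myl2, the ventricular myosin light chain, the highest of them. The libraries held 14455654 to 16564827 fragments each. Mitochondrially encoded genes took 26.3% to 26.9% of the fragments in control and 19.2% to 21.8% in ANG II. FPKM is scaled to all mapped fragments, so a shift in that share moves the values of all other genes. Over the 19364 genes tested, log2 fold changes had a median of 0.15.

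The connexins are close relatives, and the stretch of coding sequence in which 3 of them are most alike is shown because it bears on whether fragments can be told apart. Over 60 bases that encode part of the first extracellular loop, Gja1, Gjc1 and Gja3, another connexin expressed in the ventricle, shared 40 bases, printed in lower case. The 20 bases that differ in at least 1 of the 3 genes are in capitals. Sequences are from GENCODE M21 transcripts on GRCm38, 5′ to 3′ along the coding strand, and each lies in 1 coding exon.
Gja1, chr10:56387721-56387780, plus strand: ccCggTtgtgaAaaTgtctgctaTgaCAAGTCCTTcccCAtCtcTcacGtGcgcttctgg
Gjc1, chr11:102800945-102801004, minus strand: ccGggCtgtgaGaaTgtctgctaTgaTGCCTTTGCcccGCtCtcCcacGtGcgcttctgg
Gja3, chr14:57036680-57036739, minus strand: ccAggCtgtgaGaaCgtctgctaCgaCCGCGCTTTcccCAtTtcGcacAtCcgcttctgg
Capitals fall along most of the stretch, and the longest run of identical coding bases in any of the 3 pairs of these genes was 17 bases. Identity over the aligned coding sequences ranged from 47.2% to 58.9% between pairs.

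Of the 10 genes, 1 rose past both thresholds, and 2 fell with an adjusted p under 0.05 but with a change smaller than the fold threshold. Both thresholds had to be passed for a call, an adjusted p under 0.05 (limma, Benjamini-Hochberg over all genes tested) and a log2 fold change beyond 0.5 in either direction on the log2(FPKM + 1) scale. Over all genes tested, 15.4% were called. Gjc1 was called higher, where 14.0% of all genes tested were, and no member was called lower, where 1.41% were. By adjusted p alone, 3 members passed, Gjc1 upwards and Dsg2 and Dsc2 downwards, against 33.3% of all genes (28.4% upwards and 4.91% downwards). The other 7 did not pass on the deposited scale. These counts depend on the scaling of the libraries: with median-of-ratios scaling, 1 member rose and 6 fell by adjusted p alone, where 14.6% of all genes rose and 13.1% fell, and scaled by cardiomyocyte markers 4 rose and 0 fell, where 47.6% rose and 2.07% fell. These counts were added after the data had been seen. The median log2 fold change over the 10 was -0.03, below the 0.15 of all genes. In these bulk samples, fewer cells of a type and less RNA per cell cannot be told apart.

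**Figure D1:**
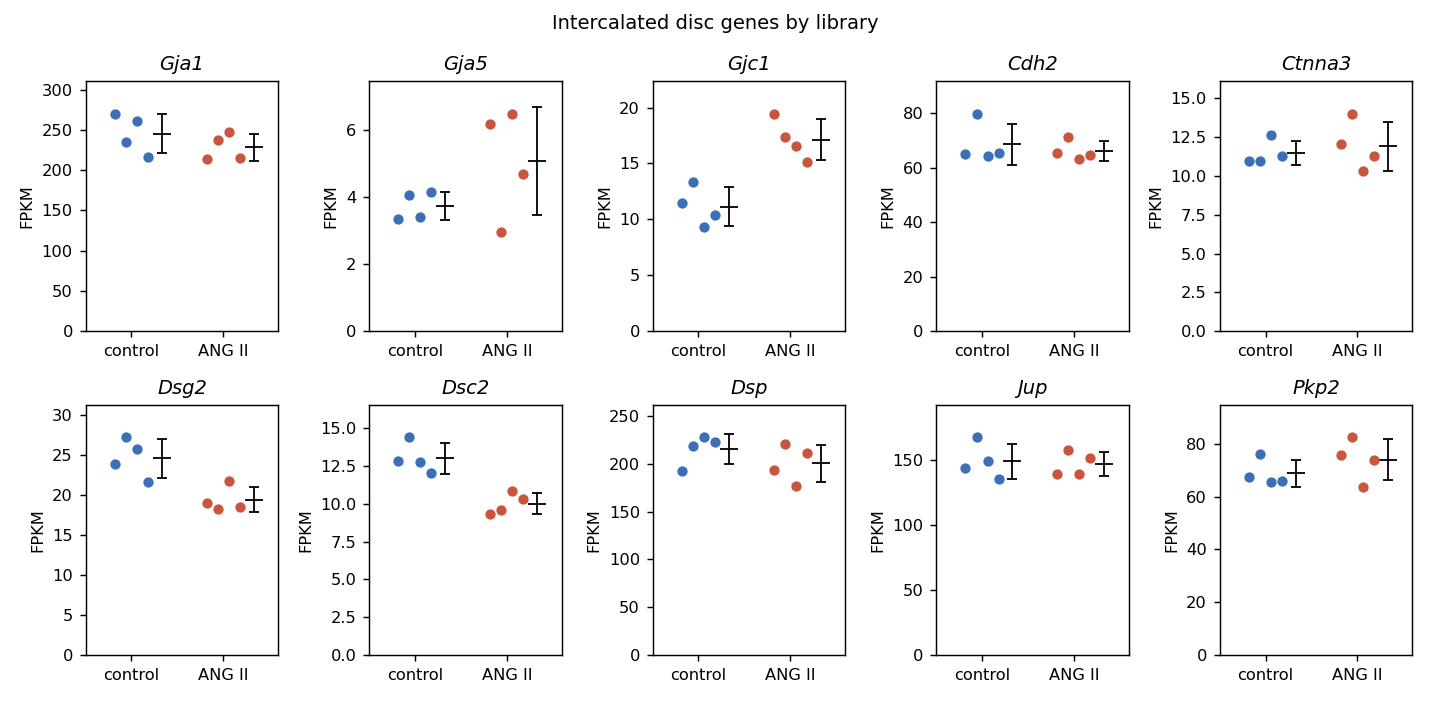
FPKM of each of the 10 genes (vertical axis, linear, from 0, 1 panel per gene) in the 4 control and 4 ANG II libraries; each point is 1 library, and the bar and whiskers are the mean and SD. The groups separate upwards for Gjc1 (9.30 to 13.4 against 15.1 to 19.5 FPKM) and downwards for Dsc2 (12.0 to 14.4 against 9.31 to 10.8 FPKM), and they overlap in the other 8 panels.

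Gja1 encodes Cx43, the main connexin of working ventricular muscle (ENSMUSG00000050953, chromosome 10, 56377330 to 56402513, plus strand, GRCm38, as are all positions here). Its level was 270.3, 235, 261 and 216 FPKM in control libraries 1 to 4 and 214, 238, 248 and 215 FPKM in ANG II libraries 1 to 4. The ranges overlapped, with control libraries 1 and 3 above every ANG II library. The mean was 245 ± 24.5 FPKM in control, against 229 ± 16.97 FPKM in ANG II (SD, n = 4 each). The log2 fold change was -0.10 (SE 0.080, adjusted p = 0.377), with a 95% interval of 0.824 to 1.06 as a fold.

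Gjc1 encodes Cx45, a connexin of the conduction system that is otherwise low in working muscle (ENSMUSG00000034520, chromosome 11, 102799579 to 102819700, minus strand). Control libraries 1 to 4 had 11.5, 13.4, 9.30 and 10.4 FPKM, and ANG II libraries 1 to 4 had 19.5, 17.3, 16.6 and 15.1 FPKM, from 301 to 576 fragments. Every ANG II library lay above every control library, as for 28.7% of all genes tested. The groups did not overlap, in either direction, for 2 members and for 33.7% of all genes. The mean rose by 53.8%, from 11.1 ± 1.73 to 17.1 ± 1.81 FPKM (SD, n = 4 each). The log2 fold change was 0.58 (SE 0.111, 95% interval 0.34 to 0.83, adjusted p = 0.00295), and it was 0.44 after the median over all genes was subtracted. The exact two-sided permutation p was 0.0286, the smallest that 4 against 4 libraries can give. Its call depended on how the libraries were scaled, since the log2 fold change fell to 0.37 with median-of-ratios scaling (adjusted p = 0.0260), 0.34 with quantile normalization (adjusted p = 0.0385) and 0.42 without mitochondrially encoded and top 10 genes (adjusted p = 0.0178), each under the fold threshold.

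Markers of other cell types that could carry connexins moved in these libraries too. Of 8 conduction system markers, 0 were called, 1 rose and 1 fell by adjusted p alone, and their summed level was 24.7 to 33.4 FPKM in control and 27.2 to 28.8 in ANG II, with Irx3 the highest. All 8 macrophage markers were called higher (sum 262 to 333 against 589 to 821 FPKM, Lyz2 the highest), and 8 of 9 fibroblast markers were (1208 to 1672 against 3409 to 3886 FPKM). The ninth, Gsn, the highest over all libraries, fell from 819 to 587 FPKM by adjusted p alone (0.0280, limma). Of 10 smooth muscle and pericyte markers, 3 were called higher and 1 lower (630 to 693 against 653 to 719 FPKM, Rgs5 the highest). None of these lists had a gene at 0 in every library. Gjc1 had the same order of groups as the macrophage and fibroblast sums, and as the endothelial, arterial endothelial and atrial sums given below. That order is shared by 28.7% of all genes tested. The part of any of these cells in the rise of Gjc1 was not tested.

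Over the 8 libraries, the genes whose centred log2(FPKM + 1) lay nearest to that of Gjc1, among 12832 genes searched, were Cnrip1, Ap2s1 and Ltbr. The root mean square differences were 0.062, 0.066 and 0.067 on the log2 scale, and their log2 fold changes were 0.52, 0.53 and 0.55. Cnrip1 encodes a protein that binds the cannabinoid receptor, Ap2s1 a subunit of the clathrin adaptor AP-2 and Ltbr the lymphotoxin beta receptor. The measure picks genes with the same group difference, so the likeness is a description.

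Gja5 encodes Cx40, a connexin of atrial muscle, the conduction system and arterial endothelium (ENSMUSG00000057123, chromosome 3, 96904693 to 97077416, plus strand). Control libraries 1 to 4 had 3.35, 4.06, 3.40 and 4.15 FPKM, and ANG II libraries 1 to 4 had 6.17, 2.96, 6.49 and 4.71 FPKM, from 113 to 235 fragments. In ANG II, 3 libraries lay above all controls and library 2 below all of them, so the SD was 1.61 FPKM around a mean of 5.08, against 0.423 around 3.74 in control. The log2 fold change of 0.32 (SE 0.189, 95% interval -0.10 to 0.74) did not pass the test (adjusted p = 0.227). Without ANG II library 2 it was 0.51 and called higher (adjusted p = 0.0172). Of the 50-base words in Gja5 transcripts, 13.2% also occur in other genes, the highest share among the 10 members, so some of its fragments may not be its own.

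Gja5 was set beside markers of the places in which it is known. Of 8 arterial endothelial markers, 5 were called higher, and their sum was 61.3 to 69.7 FPKM in control and 105 to 120 in ANG II, with Fbln5 the highest over all libraries. Fbln5 itself rose from 7.98 to 25.6 FPKM, a large part of the rise in that sum, and in control Efnb2 was higher (13.3 FPKM). Of 5 atrial markers tested, 2 were called higher, and Myl4, the atrial myosin light chain, was the highest, while Bmp10 was at 0 in all controls. The atrial sum was uneven: 53.1, 50.9, 3.73 and 22.7 FPKM in control libraries 1 to 4 and 131, 70.97, 241 and 55.9 FPKM in ANG II libraries 1 to 4. ANG II libraries 3 and 1 had the highest Gja5 and the highest atrial sum, whereas control libraries 1 and 3, with the highest and the lowest atrial sum of the controls, had 3.35 and 3.40 FPKM of Gja5. Among the 9 general endothelial markers 1 was called higher (511 to 560 against 584 to 656 FPKM, Eng the highest). The part of atrial or arterial RNA in the level of Gja5 was not tested.

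**Figure D2:**
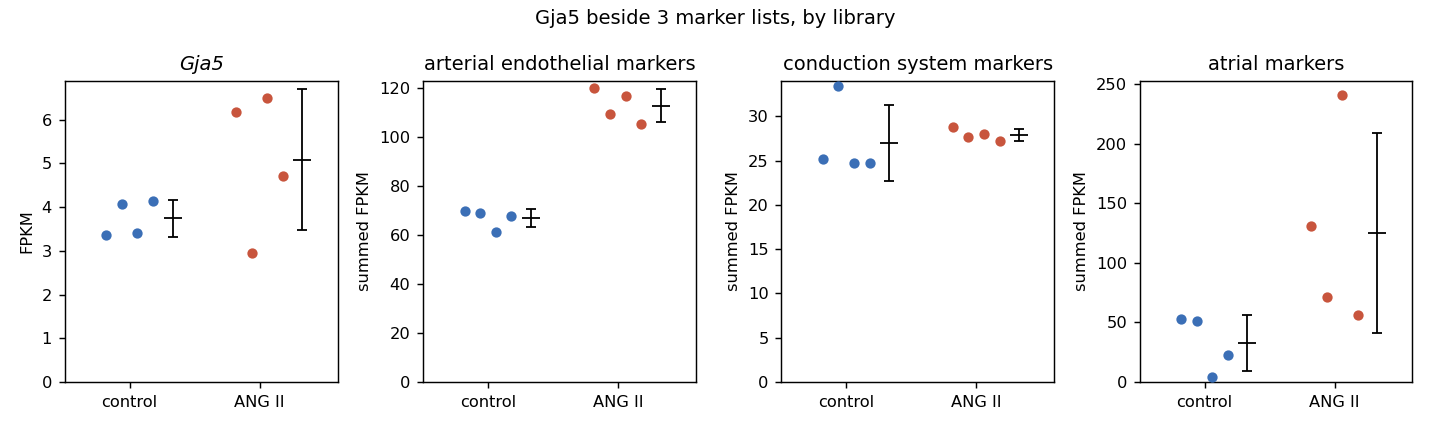
Gja5 in FPKM (left panel) and the summed FPKM of the arterial endothelial, conduction system and atrial marker lists (other panels), on linear vertical axes from 0, in the 4 control (blue) and 4 ANG II (red) libraries; each point is 1 library, libraries 1 to 4 from left to right, and the bar and whiskers are the mean and SD. The arterial sum separates the groups (61.3 to 69.7 against 105 to 120 FPKM), the conduction sum does not, and the atrial sum runs from 3.73 to 241 FPKM.

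The desmosomal cadherins fell by adjusted p on the deposited scale, short of the fold threshold. Both were called lower with median-of-ratios scaling (Dsc2 -0.56, Dsg2 -0.54) and quantile normalization (-0.60 and -0.55), and neither passed when scaled by cardiomyocyte markers. Dsc2 (ENSMUSG00000024331, chromosome 18, minus strand) had 12.8, 14.4, 12.8 and 12.0 FPKM in control libraries 1 to 4 and 9.31, 9.58, 10.8 and 10.3 FPKM in ANG II libraries 1 to 4, from 541 to 813 fragments. Every ANG II library lay below every control, as for 5.06% of all genes tested. The mean fell from 13.0 ± 1.00 to 10.01 ± 0.701 FPKM (SD, n = 4 each), and the log2 fold change was -0.35 (SE 0.077, 95% interval -0.52 to -0.18, adjusted p = 0.00667).

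Dsg2 (ENSMUSG00000044393, chromosome 18, plus strand) had 23.9, 27.2, 25.7 and 21.6 FPKM in control libraries 1 to 4 and 19.1, 18.3, 21.8 and 18.6 FPKM in ANG II libraries 1 to 4. The groups touched at 1 pair, since control library 4 lay just below ANG II library 3. The mean fell from 24.6 ± 2.43 to 19.4 ± 1.59 FPKM (SD, n = 4 each), and the log2 fold change was -0.33 (SE 0.083, 95% interval -0.51 to -0.14, adjusted p = 0.0135). As folds the intervals were 0.697 to 0.886 for Dsc2 and 0.701 to 0.908 for Dsg2, and they overlap along most of their length. A gene on the opposite strand covers 3.99% of the exon length of Dsg2, and the use of strand in counting was not given in the sources used here.

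Cardiomyocytes are the main carriers of the disc in the ventricle, and their markers did not move as one. Of 13 cardiomyocyte markers, 6 fell by adjusted p alone and 2 of these, Myh6 and Tnni3, were called lower. The other 7 did not pass, and 4 of them had values above 0: Tnnc1 (0.13, every ANG II library above every control), Mybpc3 (0.20), Ryr2 (0.05) and Actn2 (0.03), named after their values were seen. Over the 13, the median log2 fold change was -0.18, and the sum was 50364 to 51632 FPKM in control and 39533 to 41553 in ANG II. Scaled by those markers, Dsc2 and Dsg2 had log2 fold changes of -0.15 (adjusted p = 0.164) and -0.12 (adjusted p = 0.304), and neither passed. The epithelial and mesothelial list, whose cells also build desmosomes, had 1 of 7 tested markers called higher and a sum of 6.52 to 8.77 FPKM in control and 8.26 to 12.6 in ANG II, with Wt1 the highest.

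The plaque genes of the desmosome, which link these cadherins to desmin, did not pass the test on the deposited scale. Each passed the adjusted p under another scaling, Dsp and Jup downwards (-0.33 and -0.25 with median-of-ratios scaling, adjusted p = 0.0187 and 0.0301) and Pkp2 and Jup upwards (0.31 and 0.19 with cardiomyocyte scaling, adjusted p = 0.00646 and 0.0329). Dsp, the largest plaque protein (ENSMUSG00000054889, chromosome 13, 38151294 to 38198577, plus strand), had 193, 219, 228 and 223 FPKM in control libraries 1 to 4 and 194, 221, 177 and 212 FPKM in ANG II libraries 1 to 4. Its log2 fold change was -0.10 (SE 0.079, 95% interval -0.28 to 0.07, adjusted p = 0.352). The groups overlapped, at 15997 to 22513 fragments per library, the most of the 10 members. A gene on the opposite strand covers 5.17% of its exon length.

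Jup, the plakoglobin shared by desmosomes and adherens junctions (ENSMUSG00000001552, chromosome 11, 100368958 to 100397763, minus strand), had 144, 168, 149 and 136 FPKM in control libraries 1 to 4 and 140, 158, 139 and 151 FPKM in ANG II libraries 1 to 4. The ANG II range lay inside the control range. The log2 fold change was -0.02 (SE 0.072, adjusted p = 0.878), with a 95% interval of 0.884 to 1.10 as a fold.

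Pkp2, the armadillo protein that brings desmoplakin to the membrane (ENSMUSG00000041957, chromosome 16, 16213318 to 16272712, plus strand), had 67.5, 76.3, 65.5 and 65.95 FPKM in control libraries 1 to 4. The ANG II libraries had 75.8, 82.5, 63.8 and 73.8 FPKM. The ANG II group held both the highest and the lowest library, and the log2 fold change of 0.10 (SE 0.081, 95% interval -0.08 to 0.28) did not pass (adjusted p = 0.384).

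The adherens junction members did not pass on the deposited scale either, but Cdh2 passed the adjusted p with median-of-ratios scaling (-0.27, adjusted p = 0.0229) and Ctnna3 with cardiomyocyte scaling (0.24, adjusted p = 0.0385). Cdh2, the cadherin that spans the gap between the cells (ENSMUSG00000024304, chromosome 18, minus strand), had 65.0, 79.7, 64.1 and 65.4 FPKM in control libraries 1 to 4 and 65.5, 71.0, 62.98 and 64.7 FPKM in ANG II libraries 1 to 4. Library 2 was the highest of each group, and the log2 fold change was -0.05 (SE 0.075, adjusted p = 0.664, interval 0.861 to 1.09 as a fold). Ctnna3, an alpha-catenin that also binds plakophilin 2 (ENSMUSG00000060843, chromosome 10, 63430098 to 65003667, plus strand), had 10.99, 10.98, 12.6 and 11.3 FPKM in control libraries 1 to 4 and 12.0, 14.0, 10.3 and 11.3 FPKM in ANG II libraries 1 to 4. Its highest and lowest libraries were both ANG II, and the log2 fold change was 0.04 (SE 0.094, adjusted p = 0.762, interval 0.891 to 1.19 as a fold).

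How the libraries are scaled decided which members were called. As deposited, 90.8% of the calls over all genes were higher in ANG II, against 67.5% with median-of-ratios scaling, 58.9% with quantile normalization, 74.9% without mitochondrially encoded and top 10 genes, and 97.7% when scaled by the cardiomyocyte markers. The median log2 fold change of all genes was 0.0042 with median-of-ratios scaling and 0.28 with cardiomyocyte scaling. With median-of-ratios scaling, Dsc2 (-0.56, adjusted p = 5.48e-04) and Dsg2 (-0.54, adjusted p = 0.00107) were called lower, where 4.15% of all genes were, and Gjc1 was not called, where 8.63% were called higher. With quantile normalization the same pair was called lower (5.09% of all genes lower, 7.30% higher), and without mitochondrially encoded and top 10 genes Dsc2 was (3.20% lower, 9.56% higher). With cardiomyocyte scaling, Gjc1 was the member called (0.78, adjusted p = 4.93e-04), where 24.3% of all genes were called higher. Gjc1 lay above 0 and Dsc2 and Dsg2 below 0 under every scaling run. Gja5 had log2 fold changes of 0.13 with median-of-ratios scaling (adjusted p = 0.645) and 0.0082 with quantile normalization (adjusted p = 0.979), against 0.32 as deposited. The other 6 members changed sign between scalings, and Jup passed the adjusted p in both directions. Gja1, like Dsp, Jup and Cdh2, fell by adjusted p with median-of-ratios scaling (-0.33, adjusted p = 0.0146).

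**Figure D3:**
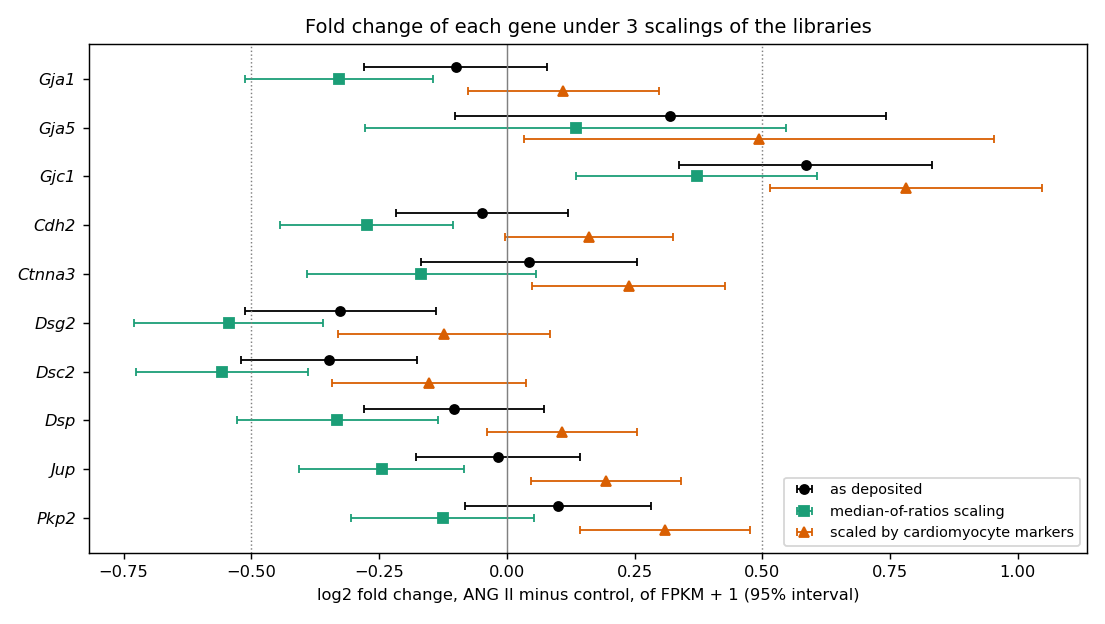
Log2 fold change of the 10 genes (horizontal axis, ANG II minus control, with 95% intervals) as deposited (circles), with median-of-ratios scaling (squares) and scaled by cardiomyocyte markers (triangles), 1 row per gene; dotted lines mark the fold threshold. The intervals of Gjc1 lie to the right of 0 under these 3 scalings (estimates 0.58, 0.37 and 0.78), and those of Dsc2 and Dsg2 lie to the left except with cardiomyocyte scaling, where they cross 0 (-0.15 and -0.12).

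Ratios of FPKM between members of a library do not depend on a scaling that gives each library 1 factor. On the deposited values, 6 were compared, as percents of FPKM and as log2 ratios of FPKM + 1. The added 1 lets the log2 ratios move somewhat with such a scaling, more so for genes with low FPKM. Quantile normalization, which is not such a scaling, can change both measures. Gjc1 was 4.25%, 5.69%, 3.57% and 4.796% of Gja1 in control libraries 1 to 4 and 9.10%, 7.29%, 6.70% and 7.03% in ANG II libraries 1 to 4. All 4 ANG II libraries lay above all 4 controls, and the difference was 0.68 on the log2 scale (from -4.35 ± 0.27 to -3.67 ± 0.19, SD, n = 4 each; exact two-sided permutation p = 0.0286, 0.171 adjusted over the 6 ratios). Each ANG II library thus held more Gjc1 per Gja1 than any control. With 4 against 4 libraries, an adjusted p under 0.05 could be reached only if at least 4 of the 6 ratios separated, so the adjusted value says little about this one.

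The desmosomal cadherins were also compared with each other. Dsc2 was 53.7%, 52.9%, 49.7% and 55.7% of Dsg2 in control libraries 1 to 4 and 48.8%, 52.4%, 49.9% and 55.6% in ANG II libraries 1 to 4. The difference was -0.02 on the log2 scale (exact two-sided permutation p = 0.714), and the ranges overlapped almost fully.

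Among the plaque genes, Pkp2 was 28.7% to 35.1% of Dsp in control and 34.8% to 39.1% in ANG II (difference 0.20 on the log2 scale, exact two-sided permutation p = 0.0571, 0.171 adjusted). The groups overlapped by control libraries 1 and 2. The ratios of Jup to Dsp (0.09, exact two-sided permutation p = 0.400), Ctnna3 to Cdh2 (0.09, exact p = 0.514) and Gja5 to Gja1 (0.42, exact p = 0.171) overlapped as well.

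**Figure D4:**
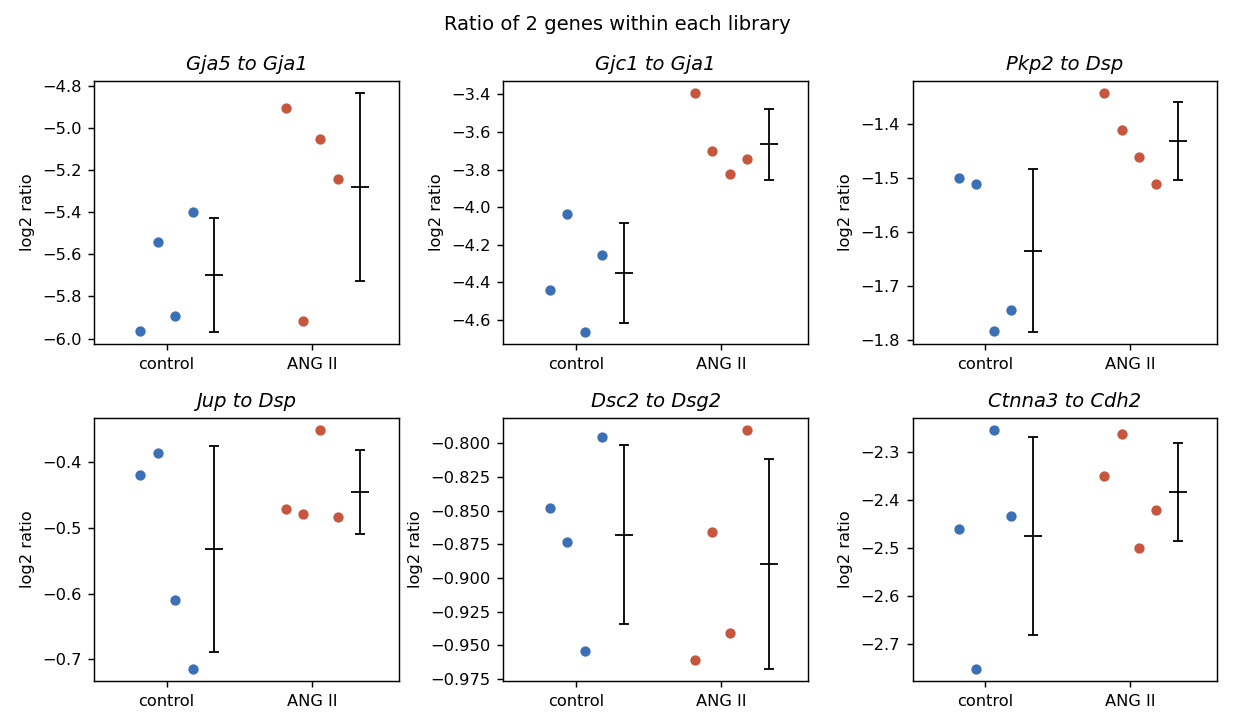
Log2 of the ratio of FPKM + 1 between 2 members in each library (vertical axis, axis ranges differ between the 6 panels, 1 panel per ratio, 1 point per library, control blue and ANG II red, bar and whiskers the mean and SD). In the panel for Gjc1 to Gja1 the ANG II points (-3.82 to -3.39) lie above all control points (-4.67 to -4.04), and in the other 5 panels the groups overlap.

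In control, all members lay in the upper part of the range of expression. Gja1 (245 FPKM) and Dsp (216 FPKM) were highest, above 98.5% and 98.4% of the genes tested, and their ranges overlapped. Jup followed (149 FPKM), then Pkp2 and Cdh2 (68.8 and 68.5 FPKM), which overlapped, then Dsg2 (24.6 FPKM). Dsc2, Ctnna3 and Gjc1 (13.0, 11.5 and 11.1 FPKM) formed a group in which neighbours overlapped, and Gja5 was lowest (3.74 FPKM), above 51.3% of the genes tested. In ANG II, Gjc1 moved from rank 9 to rank 7, where it overlapped Dsg2, and Dsc2 moved from rank 7 to rank 9. The order of the other 8 members was the same in both groups.

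The rest of the disc was read from 4 further lists of 72 genes, of which 50 were tested. Of these 50, 10 were called higher and 0 lower, where 14.0% and 1.41% of all genes were. By adjusted p alone 18 rose and 6 fell, where 28.4% and 4.91% of all genes did. With median-of-ratios scaling the calls in the lists were 7 higher and 2 lower, against 8.63% and 4.15% of all genes: Nectin1, Nectin3 and Pkp3 were no longer called, and Cxadr and Tmem65 were called lower.

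Among other connexins and pannexins, 2 of 8 tested genes were called higher, their median was 0.08 on the log2 scale, and 5 of the 20 listed were at 0 in every library. Gja4 encodes Cx37, a connexin of vessel endothelium, and had 4.35, 5.16, 4.30 and 6.09 FPKM in control libraries 1 to 4 and 8.77, 8.67, 10.3 and 10.1 FPKM in ANG II libraries 1 to 4. It rose in every ANG II library beyond every control (log2 fold change 0.81, SE 0.112, adjusted p = 4.87e-04). Of the markers given above, 5 of 8 arterial endothelial and 1 of 9 general endothelial markers were called higher. The part of these cells in the rise of Gja4 was not tested. Panx1, a channel protein that releases ATP, rose from 1.14 ± 0.101 to 5.48 ± 1.39 FPKM (1.57, SE 0.164, adjusted p = 1.09e-04, SD, n = 4 each). In the study, Panx1 was among the genes shared by its first selection methods, but not in its final set. That selection was made on the study's own samples, so it may not be independent of these libraries. Gja3 was 10.9 ± 1.35 and 9.34 ± 0.387 FPKM and did not pass (-0.20, adjusted p = 0.113), beside 11.1 and 17.1 FPKM for Gjc1.

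Of the other desmosome genes, 2 of 5 tested were called higher. Des, the desmin filament that desmosomes anchor, rose from 983 ± 63.1 to 1886 ± 384 FPKM (SD, n = 4 each; log2 fold change 0.92, SE 0.137, adjusted p = 7.62e-04), and the groups did not overlap. Pkp3, a plakophilin of epithelia, was called as well (0.55, adjusted p = 0.0422), but it stood at 0.141 and 0.712 FPKM, its groups overlapped, and the call was lost in 7 of the 8 fits that left out 1 library (it was kept without ANG II library 2). A gene on the opposite strand covers 5.86% of the exon length of Des.

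Of the other adherens junction genes, 4 of 19 tested were called higher, and 10 rose and 1 fell by adjusted p alone. Cdh11, a cadherin of mesenchymal cells, rose from 3.23 ± 0.646 to 7.11 ± 1.36 FPKM (SD, n = 4 each; 0.93, SE 0.157, adjusted p = 0.00152), beside the rise of 8 of 9 fibroblast markers. The part of fibroblasts in the rise of Cdh11 was not tested. Cdh3, P-cadherin, had at most 3 fragments in any control library and 33 to 65 in ANG II (adjusted p = 4.24e-04). Nectin3, an adhesion molecule of the immunoglobulin family, rose from 5.38 ± 0.775 to 8.82 ± 0.435 FPKM (SD, n = 4 each; 0.63, SE 0.096, adjusted p = 8.61e-04). Nectin1 was the other gene called. The catenins Ctnna1 and Ctnnb1 were chosen after their values were seen: Ctnna1 fell by 0.19 on the log2 scale (adjusted p = 0.0269) and Ctnnb1 rose by 0.17 (adjusted p = 0.0376), both under the fold threshold. Another catenin, Ctnnd1, did not pass (0.25, adjusted p = 0.145). After the median over all genes was subtracted, the values were -0.34 for Ctnna1 and 0.018 for Ctnnb1, so the rise of Ctnnb1 was about that of the median gene.

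Of 18 disc scaffold and channel genes, all tested, 2 were called higher, and 4 rose and 5 fell by adjusted p alone. Xirp2, an actin-binding protein of the disc, rose from 174 ± 23.7 to 369 ± 75.5 FPKM (SD, n = 4 each; 1.07, SE 0.146, adjusted p = 4.59e-04). Tmem43, a nuclear envelope protein linked to arrhythmogenic cardiomyopathy, rose from 23.95 ± 2.25 to 44.1 ± 5.38 FPKM (0.85, SE 0.095, adjusted p = 1.50e-04). The 5 that fell by adjusted p were Cxadr, Tmem65, Myzap, Ank2 and Lmo7, named after their values were seen. Cxadr, the coxsackievirus and adenovirus receptor of the disc, fell from 32.5 ± 1.51 to 22.7 ± 1.33 FPKM (-0.50, SE 0.060, adjusted p = 2.34e-04, SD, n = 4 each). Its groups did not overlap, and it was just short of the fold threshold on the deposited scale. It was called lower with a pseudocount of 0.1, with voom, with 3 of the other scalings and in 5 of the 8 fits that left out 1 library.

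**Figure D5:**
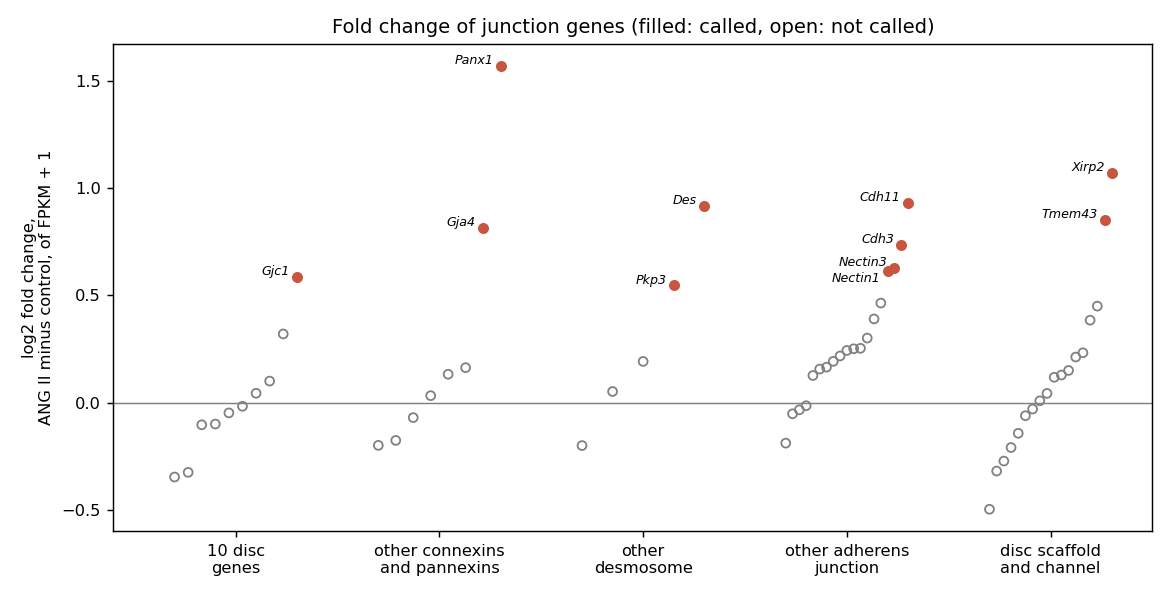
Log2 fold change (vertical axis, ANG II minus control, log2(FPKM + 1) scale) of each tested gene in the members and the 4 further lists (columns), 1 point per gene in order of value, filled and named where called and open where not. The members lie between -0.35 and 0.58, and 10 genes of the other lists are called higher and 0 lower.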

How the data were processed

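The RNA-seq libraries of left ventricle used here, 4 control and 4 ANG II, are fewer than the study reports. They were grouped by their treatment labels, with mRNA enriched on oligo(dT) and sequenced as paired ends. The authors deposited 1 table of FPKM values. The submitters' processing notes list Bowtie2, HISAT and RSEM, and the genome build, annotation and use of strand were not given in the sources used here. All 8 columns were used.

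Positions and sequences came from GENCODE M21 (GRCm38), which held 55141 of 55679 gene IDs. Fragments were recovered from the steps of the FPKM values (97.8% whole within 0.05 for genes with several exons, among values under 60 fragments); with no molecular identifiers, they are not independent molecules. Coding sequences of 3 connexins were aligned with MAFFT 7.526, and other sequences are not reported here.

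limma 3.58.1 in R 4.3.3, a tool the study names, was fitted (lmFit, eBayes with trend) on log2(FPKM + 1) for genes averaging 0.1 FPKM or more, and Benjamini-Hochberg adjusted. The thresholds (0.05 and 0.5) are the study's; base 2, the pseudocount and the filter were chosen here. The script was tested on simulated data. Single values were compared by exact two-sided permutation over libraries. Alternatives were other scalings, pseudocounts, filters and thresholds, voom on fragments, the replicate number as a block, and each library left out.

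Named beside the members were up to 3 called genes per disc list with the largest change and groups that did not overlap, the highest gene per cell type list, and the 3 genes nearest to a called member. Further genes were named outside this rule, among them Gja3, Pkp3, Nectin1, Cxadr, catenins and some cell type markers. The members and lists were chosen with earlier results of these data known.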

Additional observations from a re-analysis of the deposited data

Results flagged for a closer look

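Of 32 groups of 4 values checked (each member and each of the 6 ratios, in each group), 2 had a library far from the other 3, and chance gives about 1 in 20. Cdh2 was 79.7 FPKM in control library 2 and 64.1 to 65.4 FPKM in the other 3 controls. The log2 ratio of Jup to Dsp was -0.35 in ANG II library 3 and -0.48 to -0.47 in the other 3 ANG II libraries.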

How the results depend on the processing

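Against 2981 genes, 1 member, 10 genes of the disc lists and 1 separated ratio, adjusted p alone called 6447 genes, 3 members and 24 list genes, an absolute log2 fold change above 1 called 795, 0 and 2, and scaling by cardiomyocyte markers called 4814 genes. Median-of-ratios scaling and quantile normalization each called 2 members. With median-of-ratios scaling, quantile normalization and removal of mitochondrially encoded and top 10 genes, the log2 fold changes turned negative for Pkp2 (-0.13, -0.081 and -0.074) and Ctnna3 (-0.17, -0.21 and -0.12). With cardiomyocyte scaling they turned positive for Gja1 (0.11), Dsp (0.11), Jup (0.19) and Cdh2 (0.16). With a scaling that gives each library 1 factor, these moves follow the common shift of that scaling, lessened by the added pseudocount for genes with low FPKM. Quantile normalization is not such a scaling, and what moved each gene under it was not tested. Leaving out 1 library gave 2763 to 3109 genes, 1 to 2 members (Gja5 joined without ANG II library 2), 9 to 11 list genes and 1 to 2 ratios. It moved Gja1 between -0.16 and -0.052, Dsp between -0.16 and -0.046, Pkp2 between 0.047 and 0.17 and Gja5 between 0.21 and 0.51, with Gja1, Dsp and Pkp2 not called in any of these. It moved Jup between -0.060 and 0.040, Cdh2 between -0.083 and 0.026 (positive without control library 2) and Ctnna3 between -0.03 and 0.10 (negative without ANG II library 2). The labels number the replicates alike in both groups, and nothing in the sources says that the numbers mark pairs. Over the genes tested, deviations of same-numbered libraries from their group means had correlations of -0.032 to 0.062. With 4 libraries per group, this cannot settle whether they were paired. The replicate block called 2968 genes, 1 member and 10 list genes and separated 2 ratios. At 113 to 235 fragments, counting error adds to the spread of Gja5.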

Other observations

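After the values had been seen, all 45 pairs of the 10 members were compared as within-library ratios. In 12 pairs the groups did not overlap, and the lowest adjusted exact permutation p was 0.107. The share of such pairs among other genes was not worked out, so the count has no background to be read against. Taken singly, 33.7% of all genes tested had groups that did not overlap. The pairs reuse the same members, so the 12 are not separate results. With 4 against 4 libraries, no pair could pass unless most of the 45 separated. Gjc1 took part in 8 of the 12, all of its 9 pairs but that with Gja5, and Dsc2 in 4, whereas Gja5 took part in 0. The difference between Gjc1 and Dsc2 was 0.93 on the log2 scale and that between Gjc1 and Dsg2 0.91. The differences of Dsc2 and Dsg2 against Jup, their partner in the plaque, were -0.33 and -0.31, and that of Pkp2 against Dsc2 was 0.45.

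The order of the levels depends on the transcript length used. Per kilobase of the longest transcript, also chosen after the data were seen, Dsp came first in control (134 against 116 for Gja1, with overlapping ranges), and Jup (63.5) lay beside Pkp2 (61.1). In ANG II, Pkp2 (65.7) lay above Jup (62.7) on that scale.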
